A study of Mus musculus with 6 samples.

Results

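Growth hormone, IGF1 and the proteins that carry IGF1 were followed here at the level of mRNA in primary mouse hepatocytes transduced with nuclear CREBH. The 10 genes were a list of names, *Igf1*, *Igfals*, *Igfbp1*, *Igfbp2*, *Igfbp3*, *Igfbp4*, *Ghr*, *Socs2*, *Stat5a* and *Stat5b*, and all 10 were measured among the 18820 genes of the array. This list was chosen with earlier results of these data known, so its counts describe these genes and test no hypothesis. Hepatocytes, cells freed from a perfused and digested liver, came from male wildtype C57BL/6J mice 8 to 10 weeks old and were kept in 60 mm dishes in M199 medium with 10% serum. Control dishes received Ad-GFP, an adenovirus encoding green fluorescent protein, and the remaining dishes received Ad-nuclear CREBH, which encodes the N-terminal fragment of CREBH that acts as a transcription factor in the nucleus. Both groups were transduced at a multiplicity of infection of 100, and RNA was taken 24 h later from 3 dishes of each, with 1 array for each dish. Both groups therefore carried adenovirus, no dish was left without it, and the medium as described held no added growth hormone. No source states from how many animals the dishes were plated, and each p-value rests on the spread among dishes alone, which may be technical.

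Growth hormone acts on the liver through its receptor, GHR, which has no kinase activity of its own and signals through the kinase JAK2. JAK2 phosphorylates STAT5, which enters the nucleus and raises transcription of *Igf1*, *Igfals* and *Socs2*, and SOCS2 in turn restrains the receptor. The liver is the main source of circulating IGF1. In plasma most of it is held in a complex of IGF1, IGFBP3 and the acid-labile subunit encoded by *Igfals*, whereas IGFBP1, IGFBP2 and IGFBP4 form smaller complexes. In mice the CREBH target FGF21 has been described to blunt growth hormone signalling in liver.

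The promoters of 3 of these genes are shown first, because *Igfbp1* had the largest fall of the 10 genes and *Igfbp2* the only rise, and because that of *Igfals* holds a match to the letters that STAT proteins bind. Each is the 250 bases before the first start site that RefSeq annotates, on the plus strand of GRCm38.p6. They lie at chr11:7197537-7197786 for *Igfbp1*, chr17:24877594-24877843 for *Igfals* and chr1:72824230-72824479 for *Igfbp2*. In *Igfbp1* the capitals mark CAAAACA, the core of the insulin response element at which FOXO1 is known to act. In *Igfals* they mark a match to TTCNNNGAA, the palindrome recognized by STAT5.
Igfbp1: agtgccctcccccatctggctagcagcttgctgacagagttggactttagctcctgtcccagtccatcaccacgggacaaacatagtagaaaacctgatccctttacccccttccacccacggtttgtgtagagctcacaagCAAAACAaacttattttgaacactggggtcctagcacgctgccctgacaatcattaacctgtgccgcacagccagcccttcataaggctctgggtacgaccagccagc
Igfals: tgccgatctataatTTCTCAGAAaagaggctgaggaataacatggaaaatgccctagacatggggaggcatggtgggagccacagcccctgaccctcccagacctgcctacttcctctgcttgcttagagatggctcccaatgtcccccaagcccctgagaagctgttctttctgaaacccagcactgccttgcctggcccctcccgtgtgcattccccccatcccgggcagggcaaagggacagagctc
Igfbp2: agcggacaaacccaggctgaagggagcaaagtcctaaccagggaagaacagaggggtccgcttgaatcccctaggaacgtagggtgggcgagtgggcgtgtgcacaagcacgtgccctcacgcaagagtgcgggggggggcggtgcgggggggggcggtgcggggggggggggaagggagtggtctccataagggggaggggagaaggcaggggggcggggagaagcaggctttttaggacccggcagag

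Start sites were annotated for 9 of the 10 genes, with 15 promoters in all. Each motif was searched on both strands in the 250 bases before the start. CAAAACA was found in 1 of the 15, the *Igfbp1* promoter, where it began 108 bases before the start, and in 5.56% of all 32851 promoters. TTCNNNGAA was found in 2 of the 15, both of them *Igfals* promoters, against 7.02% of all. The match printed above began 236 bases before the start, and the other, TTCCTAGAA at chr17:24878173-24878181, began 58 bases before a later start of the gene. The palindromic cAMP response element TGACGTCA was found in none of the 15 and in 1.55% of all promoters, and the shorter TGACG, which every TGACGTCA contains, in 1 of the 15, at a later start of *Igfals*, and in 17.8% of all. These are matches of letters and not known binding sites, and a window without a match leaves sites elsewhere in the gene unexamined.

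The values are log2 expression from RMA, which corrects the background and normalizes the arrays, and a log2 difference of 1 is a doubling. A gene rose or fell where the adjusted p from limma, over all 18820 genes, was under 0.05. The median over all genes lay between 5.05 and 5.30 on the 6 arrays. In both groups the array of replicate 1 had the lowest mean correlation to the rest of its group, over genes, at 0.986 for Ad-GFP and 0.991 for Ad-nuclear CREBH. *Creb3l3*, the CREBH gene, had a log2 change of 2.10 (SE 0.19, adjusted p = 9.0e-05), in which the viral transcript and that of the mouse gene cannot be told apart, and *Fgf21* of 3.28 (SE 0.16, adjusted p = 1.8e-05). Of the 7 hepatocyte markers measured, all had an Ad-GFP mean above the median of all genes, and *Alb* was at 13.28 and 13.27 (adjusted p = 0.865). *Alb*, near the top of the range on each array, passed as a fall with cyclic loess (-0.31, adjusted p = 0.00642). The hepatocyte markers *Asgr1* and *Cps1* fell, at -1.51 (adjusted p = 0.0111) and -1.21 (adjusted p = 0.00165), and *Fah* rose by 0.43 (adjusted p = 0.0126). For Ad-GFP and Ad-nuclear CREBH, each array's mean over the markers was 4.08 to 4.11 and 3.84 to 4.43 for 10 markers of stellate cells and fibroblasts, 5.11 to 5.37 and 4.93 to 5.22 for 10 of macrophages, 4.96 to 5.35 and 4.98 to 5.30 for 10 of endothelial cells, and 4.48 to 4.96 and 4.86 to 5.11 for 5 of cholangiocytes. In the marker lists 2 of 7 genes rose and 2 fell for hepatocytes, 1 of 10 fell for stellate cells and fibroblasts and 1 of 5 rose and 1 fell for cholangiocytes, beside 19.2% risen and 18.2% fallen over all genes. Of the brightest, *Apoa1* (0.74) and *Epcam* (1.74) rose and *Reln* (-1.90) fell, while *Sox9* (0.58, adjusted p = 0.278) and *Col1a1* (1.63, adjusted p = 0.0619) did not pass. *Krt19*, a dimmer cholangiocyte marker at 4.49 and 3.43, went the other way from *Epcam* and fell, at -1.06 (adjusted p = 0.00409). *Sox9* passed when replicate 1 of Ad-GFP was left out (0.0108) and *Col1a1* when replicate 1 of nuclear CREBH was (2.2e-04) and under the 3 other normalizations (0.0342 to 0.0459). Fewer cells of a type and less RNA per cell cannot be told apart in such dishes.

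Of the 10 genes, 7 fell, 1 rose and 2 did not pass the test in hepatocytes transduced with Ad-nuclear CREBH. Over all genes 18.2% fell, 19.2% rose and 37.4% passed in either direction. All 10 genes had an Ad-GFP mean above the median of all genes, and brighter genes passed more often. When only the 14115 genes above the 25th percentile of level were tested, 3563 rose and 3504 fell. Of the 4741 genes with a group mean above 300 on the linear scale, 1861 rose and 1468 fell when tested alone. This second filter took the higher of both group means. It thus admitted changed genes through the group where they were high, and its counts do not reflect brightness alone. The 10 genes had a median log2 fold change of -1.18, against 0.039 over all genes. For the same 7 genes all 3 Ad-nuclear CREBH dishes lay below all 3 Ad-GFP dishes, as they did for 23.1% of all genes, and for *Igfbp2* they lay above, as for 26.2% of all genes. An exact two-sided permutation test of 3 against 3 dishes cannot give a p under 0.1, which each of these 8 genes reached. With each array centred on its median, which put the median change over all genes at 0.18 on the log2 scale, the calls over all genes shifted from 51.3% to 62.8% risen, and the same counts were 7 fallen and 2 risen, *Socs2* being the second.

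**Figure D1:**
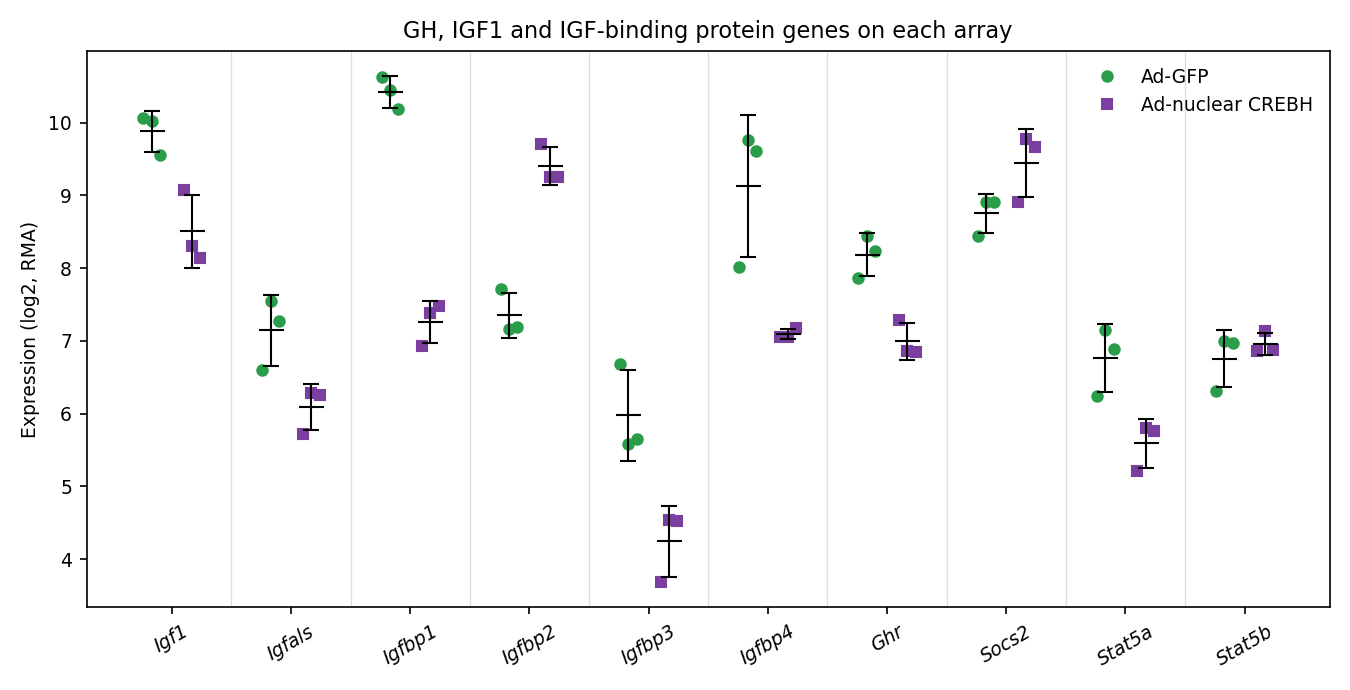
Log2 expression from RMA of the 10 genes, 1 point per dish, in green circles for Ad-GFP and purple squares for nuclear CREBH, with replicates 1 to 3 from left to right; bars are the mean ± SD of 3 dishes. Heights are comparable between groups of 1 gene and not between genes. The groups overlap for *Socs2* and *Stat5b* alone, and the Ad-GFP dishes of *Igfbp4* spread from 8.01 to 9.76.

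*Igf1*, the hormone that mediates much of the growth effect of growth hormone, fell 2.59-fold. Its log2 values were 10.07, 10.02 and 9.56 under Ad-GFP and 9.08, 8.30 and 8.14 under nuclear CREBH. The groups did not overlap, and the Ad-nuclear CREBH dish of replicate 1 lay closest to the control dishes. The means were 9.88 ± 0.28 (SD, n = 3) and 8.51 ± 0.50 (SD, n = 3), a log2 change of -1.37 (SE 0.25, adjusted p = 0.00337). One feature carried the symbol, with the accessions of 4 RefSeq transcripts, so transcripts that differ in their first exon or in their E peptide were not separated.

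*Igfals* encodes the acid-labile subunit, which keeps IGF1 and IGFBP3 in the circulation. Its values were 6.61, 7.55 and 7.28 under Ad-GFP and 5.73, 6.29 and 6.25 under nuclear CREBH. In both groups the dish of replicate 1 was the lowest, and the highest Ad-nuclear CREBH dish was still below the lowest control dish. The log2 fold change was -1.06 (SE 0.27, adjusted p = 0.0154). This call was the least firm of the 7 falls, since it was lost with 1 dish left out in 3 of 6 cases. Leaving out Ad-GFP replicate 2 gave -0.85 (adjusted p = 0.054), Ad-GFP replicate 3 gave -0.99 (adjusted p = 0.0535) and, of the nuclear CREBH dishes, replicate 1 gave -0.88 (adjusted p = 0.0503).

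Of the 4 genes of binding proteins, 3 fell and 1 rose. *Igfbp1* encodes a binding protein whose transcription in liver is suppressed by insulin and raised in fasting. It fell 8.92-fold, from values of 10.63, 10.45 and 10.19 under Ad-GFP to 6.94, 7.38 and 7.48 under nuclear CREBH. The gap between the groups was far wider than the spread within either of them, with means of 10.42 ± 0.22 (SD, n = 3) and 7.27 ± 0.29 (SD, n = 3). The log2 fold change was -3.16 (SE 0.18, 95% confidence interval -3.57 to -2.74, adjusted p = 2.0e-05), and 134 of the 18820 genes had a more negative one.

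*Igfbp2*, which encodes another binding protein of the smaller complexes, rose 4.14-fold. Its values were 7.71, 7.16 and 7.19 under Ad-GFP and 9.70, 9.25 and 9.26 under nuclear CREBH, and in both groups the dish of replicate 1 was the highest. The log2 fold change was 2.05 (SE 0.20, 95% confidence interval 1.60 to 2.51, adjusted p = 1.2e-04). On the same array, the log2 value of *Igfbp2* minus that of *Igfbp1* was -2.92, -3.29 and -3.001 under Ad-GFP and 2.76, 1.87 and 1.78 under nuclear CREBH, a shift of 5.21 between the group means (exact two-sided permutation test, p = 0.1, the smallest this design allows). Every Ad-nuclear CREBH dish lay above the control dishes for *Igfbp2* and below them for *Igfbp1*, so this p was fixed in advance and adds no support. The pair was chosen after its values were seen. The shift, not the level of one gene against the other, can be read from these arrays.

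*Igfbp3* encodes the main carrier of IGF1 in plasma, which in liver is known to be made mostly by cells other than hepatocytes. It fell 3.32-fold, from 6.69, 5.58 and 5.66 under Ad-GFP to 3.68, 4.53 and 4.52 under nuclear CREBH. The dish of replicate 1 was the highest of the control group and the lowest of the Ad-nuclear CREBH group, so that both of these dishes widened the gap. The log2 fold change was -1.73 (SE 0.35, adjusted p = 0.00499) and, without both arrays numbered 1, was -1.09. The Ad-nuclear CREBH mean of 4.25 was below the Ad-GFP median of all genes, 5.25, where RMA compresses differences. Among the markers of endothelial cells and macrophages none of 10 and 3 of 10 fell, and 1 of 10 rose in each, beside 18.2% fallen and 19.2% risen over all genes. The brightest were *Cdh5* at 6.61 and 6.62 (adjusted p = 0.97), *Oit3* at 5.93 and 6.49 (adjusted p = 0.0491), *Cd68* at 11.49 and 10.35 (adjusted p = 0.0215) and *Lyz2* at 6.28 and 5.71 (adjusted p = 0.0403). Of the other macrophage markers, *Csf1r* rose by 0.61 (adjusted p = 0.0254), *Cd5l* fell, at -0.64 (adjusted p = 0.0374), and the rest did not pass. The level of *Cd68* was out of line with this list, in which 7 of 10 had an Ad-GFP mean below the median of all genes. The calls of *Oit3*, *Cd68* and *Lyz2* were each lost with 1 array left out, in 5, 4 and 5 of 6 cases, with adjusted p-values up to 0.17, 0.0814 and 0.128, and that of *Lyz2* also under the 3 other normalizations (0.0953 to 0.139). The part of these cells in the fall of *Igfbp3* was not tested. *Igfbp3* lies next to *Igfbp1* on mouse chromosome 11, as *Stat5a* lies next to *Stat5b*.

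*Igfbp4* encodes a binding protein that holds IGF1 away from its receptor until the protease PAPP-A cleaves it. Its values were 8.01, 9.76 and 9.62 under Ad-GFP and 7.05, 7.05 and 7.18 under nuclear CREBH. The control dish of replicate 1 was far below the other control dishes, whereas the Ad-nuclear CREBH dishes had an SD of 0.075 (n = 3). The fall was 4.10-fold, with a log2 change of -2.03 (SE 0.41, adjusted p = 0.00532), and without Ad-GFP replicate 1 it was -2.59.

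*Ghr*, the growth hormone receptor, fell 2.28-fold. Its values were 7.87, 8.45 and 8.24 under Ad-GFP and 7.29, 6.86 and 6.84 under nuclear CREBH, with no overlap. The log2 fold change was -1.19 (SE 0.20, adjusted p = 0.00189). The feature carries the accessions of 2 RefSeq transcripts, so the full receptor and the secreted growth hormone binding protein, which is spliced from the same gene in mice, were not told apart.

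*Stat5a* and *Stat5b* encode the near-identical transducers of the receptor, of which STAT5B is the more abundant in liver. *Stat5a* was at 6.25, 7.15 and 6.89 under Ad-GFP and at 5.21, 5.81 and 5.76 under nuclear CREBH, a log2 change of -1.17 (SE 0.27, adjusted p = 0.00952). *Stat5b* was at 6.31, 6.999 and 6.97 under Ad-GFP and at 6.86, 7.13 and 6.88 under nuclear CREBH, and the groups overlapped. Its log2 fold change was 0.20 (95% confidence interval -0.29 to 0.69, adjusted p = 0.523), which leaves room for changes of either sign, and it was -0.03 without Ad-GFP replicate 1. On the same array, *Stat5b* minus *Stat5a* was 0.06, -0.15 and 0.08 under Ad-GFP and 1.65, 1.33 and 1.11 under nuclear CREBH, so that the balance of both genes shifted by 1.37 (exact two-sided permutation test, p = 0.1). This pair was also chosen after its values were seen. Since both genes share long stretches of sequence, probes may read some of the other gene's transcript, and the size of each change is uncertain to that extent.

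*Socs2* encodes the feedback inhibitor of the receptor and is a classic STAT5 target in liver. Its values were 8.44, 8.91 and 8.91 under Ad-GFP and 8.91, 9.77 and 9.66 under nuclear CREBH. The dish of replicate 1 was the lowest in both groups, and the Ad-nuclear CREBH dish of replicate 1 fell among the control dishes. The log2 fold change was 0.69 (SE 0.24, 95% confidence interval 0.13 to 1.25, adjusted p = 0.0558), which did not pass. It passed without Ad-nuclear CREBH replicate 1, at 0.96 (adjusted p = 0.00508). With any other 1 array left out it did not pass, with adjusted p-values from 0.081 to 0.187, the highest without Ad-nuclear CREBH replicate 2. A second, dimmer feature annotated to the same 4 RefSeq transcripts was at 4.94, 5.18 and 5.16 under Ad-GFP and 5.28, 5.90 and 6.15 under nuclear CREBH, without overlap, and its log2 fold change of 0.68 (adjusted p = 0.0509 over all features) was close to that of the brighter one. Thus both features of *Socs2* had positive log2 fold changes, whereas those of *Igf1* and *Igfals*, the other STAT5 targets of the list, were negative.

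**Figure D2:**
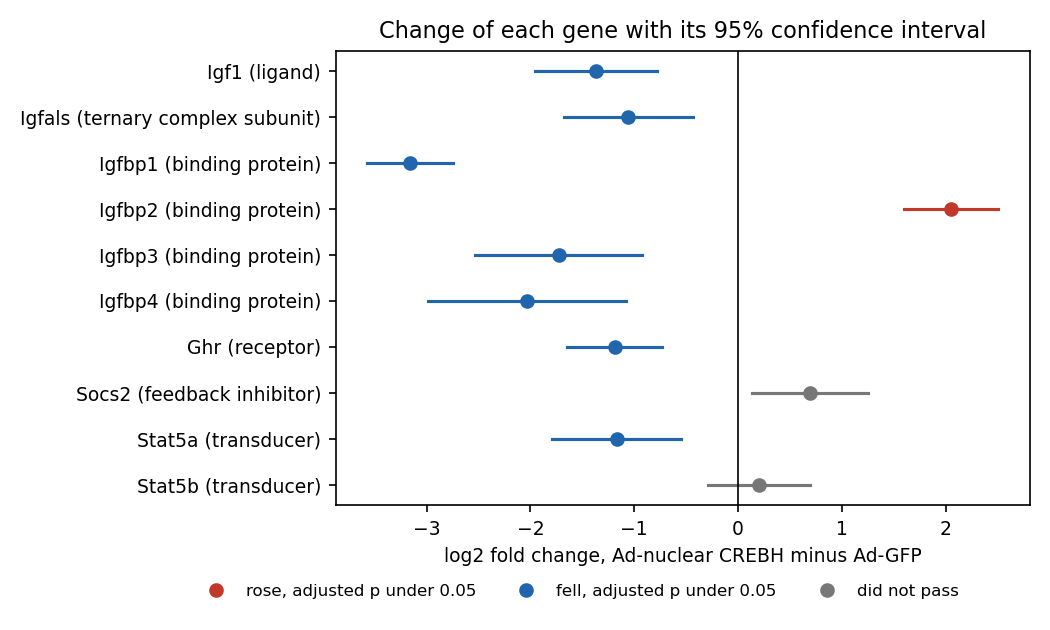
Log2 fold change of each gene, Ad-nuclear CREBH minus Ad-GFP (points, n = 3 dishes each), with its 95% confidence interval from limma (lines), coloured by whether the adjusted p over all genes was under 0.05. *Igfbp1* at -3.16 and *Igfbp2* at 2.05 lie farthest from 0 on either side, and the interval of *Stat5b*, -0.29 to 0.69, spans 0.

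By the stricter criteria of the methods, an unadjusted p under 0.001, a change of more than 2-fold up or below 0.5-fold and an expression minimum of 300 on the linear scale, taken here as the mean of at least 1 group, *Igfbp2* was upregulated and *Igf1* and *Igfbp1* were downregulated. Over all genes 4.91% were upregulated and 3.1% were downregulated by these criteria. Of the remaining genes that fell, *Ghr* had a p of 3.1e-04 and a 2.28-fold change but group means below the expression minimum, which is 8.23 on the log2 scale. *Igfbp4* passed the minimum but had a p of 0.00117.

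The kinase next to the receptor fell as well. *Jak2* was at 8.43, 8.42 and 8.59 under Ad-GFP and at 6.76, 6.55 and 6.24 under nuclear CREBH, a 3.90-fold fall with a log2 change of -1.96 (SE 0.17, adjusted p = 6.5e-05). All of the Ad-nuclear CREBH dishes were well below the control dishes. Of 16 measured genes of growth hormone receptor signalling other than the 10, 5 rose, 3 fell and 8 did not pass, beside 19.2% risen and 18.2% fallen over all genes, and their median log2 fold change was 0.018. Besides *Jak2* the genes that fell were *Irs1*, an adaptor of insulin and IGF1 receptors, at -1.43 (adjusted p = 2.6e-04), and the phosphatase gene *Ptpn11* at -0.38 (adjusted p = 0.0392), whose call was lost without any 1 of the 6 arrays, with adjusted p-values of 0.0538 to 0.111, and with median centring (0.172). The rises were led by the adaptor genes *Grb2* at 1.26 (adjusted p = 6.9e-04) and *Irs2* at 1.14 (adjusted p = 0.0132), the latter with an adjusted p of 0.0565 and 0.0516 without Ad-nuclear CREBH replicates 2 and 3. The brightest genes that did not pass were *Sos1* at 0.001 (adjusted p = 0.997), *Shc1* at -0.24 (adjusted p = 0.291) and *Gab1* at 0.66 (adjusted p = 0.0651), which passed without Ad-GFP replicate 1 (0.0385) or 2 (0.0441). *Gab1* also passed with median centring (0.0124), quantile normalization (0.0402), cyclic loess (0.0313), array weights (0.0196) and the replicate block (0.0293).

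Of 7 measured suppressors of cytokine signalling other than *Socs2*, 4 rose, 1 fell and 2 did not pass, beside 19.2% risen and 18.2% fallen over all genes, with a median log2 fold change of 0.49. *Socs1*, *Socs3* and *Cish* were also counted among the genes of receptor signalling above. *Socs3*, which inhibits the growth hormone and interleukin-6 receptors, rose by 1.04 (adjusted p = 0.00397), or by 0.66 as the mean of its features, *Socs1* by 0.94 (adjusted p = 9.3e-04), *Socs7* by 1.15 (adjusted p = 0.00181) and *Socs4* by 0.49 (adjusted p = 0.0227), while *Socs5* fell, at -0.96 (adjusted p = 0.00158). The call of *Socs4* was lost when Ad-GFP replicate 2 (0.0782) or, of the nuclear CREBH dishes, replicate 2 (0.081) or 3 (0.0631) was left out. *Cish*, a STAT5 target like *Socs2*, was at 7.10 and 7.14 (adjusted p = 0.868), and *Socs6* was at 0.34 (adjusted p = 0.118), which passed without Ad-GFP replicate 1 (0.00576) and with array weights (0.00305).

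Of 4 measured STAT genes other than *Stat5a* and *Stat5b*, 2 fell and none rose, beside the same shares over all genes. *Stat2*, a transducer of interferon signals, had a log2 fold change of -1.64 (adjusted p = 1.3e-04), and *Stat3*, which acts for interleukin-6, of -0.50 (adjusted p = 0.0409). The call of *Stat3* was lost without any 1 array other than Ad-GFP replicate 1, with adjusted p-values of 0.0507 to 0.134, and with each array centred on its median (0.0785). *Stat6* was at -0.21 (adjusted p = 0.166, and 0.0425 with quantile normalization and 0.0231 with array weights) and *Stat4* at 0.09 (adjusted p = 0.509).

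Of 19 measured genes of the IGF axis other than the 10, 4 rose, 4 fell and 11 did not pass, so that 8 of 19 were called beside 37.4% of all genes, with a median log2 fold change of 0.067. *Htra1*, a secreted protease known to cleave IGF-binding proteins, had the largest change among them. It was at 4.73, 3.94 and 3.79 under Ad-GFP and at 6.32, 8.34 and 8.63 under nuclear CREBH, a log2 change of 3.61 (SE 0.57, adjusted p = 0.00148). Its Ad-nuclear CREBH dish of replicate 1 was the lowest of its group, and all 3 were above the control dishes. *Furin*, a convertase that processes the precursor of the IGF1 receptor, rose by 1.25 (adjusted p = 0.0017), *Igf2bp3*, which encodes an RNA-binding protein, by 1.102 (adjusted p = 0.00678) and *Igf2r*, the receptor that clears IGF2, by 0.74 (adjusted p = 0.00427).

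*Igfbp7*, which encodes a related protein of low affinity for IGF1, was at 7.63, 8.68 and 8.74 under Ad-GFP and at 6.41, 6.58 and 6.52 under nuclear CREBH, with a log2 change of -1.85 (SE 0.28, adjusted p = 0.00128). As with *Igfbp4*, the lowest control dish was that of replicate 1 and the Ad-nuclear CREBH dishes were close to each other. *Igfbp5* at -0.66 (adjusted p = 0.0179), the receptor inhibitor gene *Grb10* at -0.62 (adjusted p = 0.0189) and the lysosomal protease gene *Ctsd* at -0.40 (adjusted p = 0.006) also fell. The calls of *Igfbp5* and *Grb10* were lost without Ad-nuclear CREBH replicate 2 (0.0691 and 0.0615) or 3 (0.0506 and 0.0785), and that of *Grb10* also under each of the other normalizations, median centring (0.0755), quantile (0.0522) and cyclic loess (0.0682). *Igf2*, *Igf1r*, *Pappa* and *Pappa2* had values of 3.42, 3.76, 3.70 and 3.56 in the Ad-GFP dishes, below the median of all genes, and did not pass. The brightest genes that did not pass were *Insr* at -0.51 (adjusted p = 0.153), *Stc2* at 0.67 (adjusted p = 0.219) and *Adam12* at 0.50 (adjusted p = 0.323). *Insr* and *Stc2* passed without Ad-GFP replicate 1 (0.0104 and 8.7e-04) and with array weights (0.00767 and 0.00147), *Insr* also with the replicate block (0.0159), and *Adam12* once replicate 1 of nuclear CREBH was left out (0.0111) or with array weights (0.0142).

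**Figure D3:**
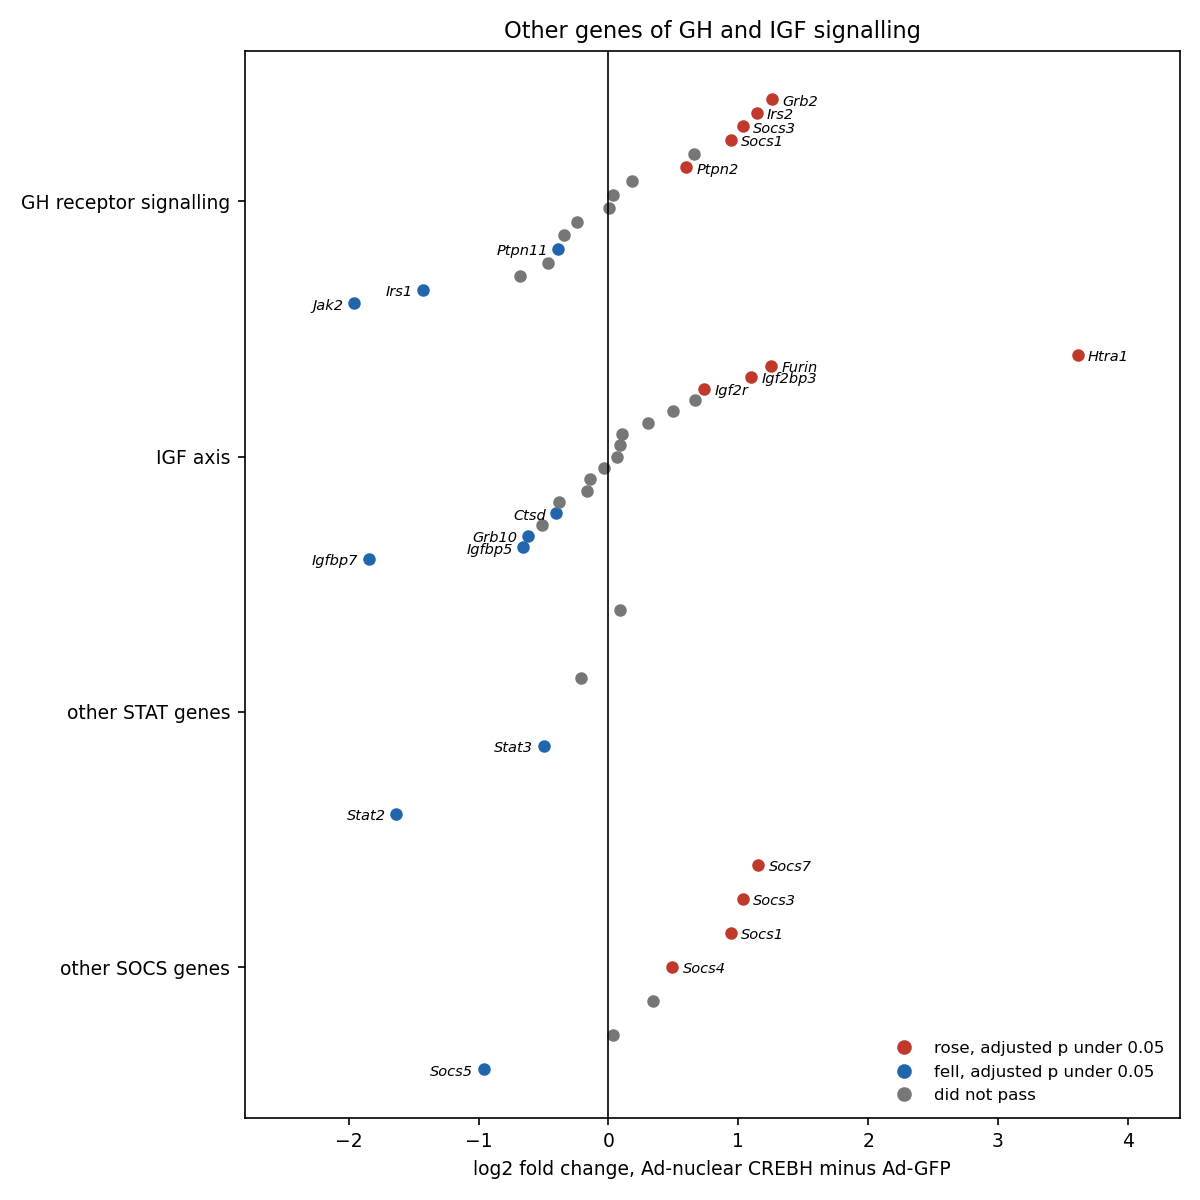
Log2 fold change, Ad-nuclear CREBH minus Ad-GFP, of the measured genes of growth hormone receptor signalling (16 genes), the IGF axis (19), other STAT genes (4) and other SOCS genes (7), sorted within each row; names are given for genes that rose (red) or fell (blue) at an adjusted p under 0.05, and *Socs1* and *Socs3* stand in both of their lists. *Jak2* at -1.96 lies farthest to the left and *Htra1* at 3.61 farthest to the right.

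Leaving out arrays changed the calls of *Igfals* and *Socs2* among the 10 genes and turned the sign of *Stat5b*, which had not passed. Without both arrays numbered 1 the log2 fold changes were -1.57 for *Igf1*, -2.89 for *Igfbp1*, 2.08 for *Igfbp2*, -2.57 for *Igfbp4* and -1.49 for *Ghr*, and the counts were 7 fallen and 2 risen. *Igfbp1* kept an adjusted p of 4.0e-04 or lower and *Igfbp2* of 0.00103 or lower whichever array was left out.

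**Figure D4:**
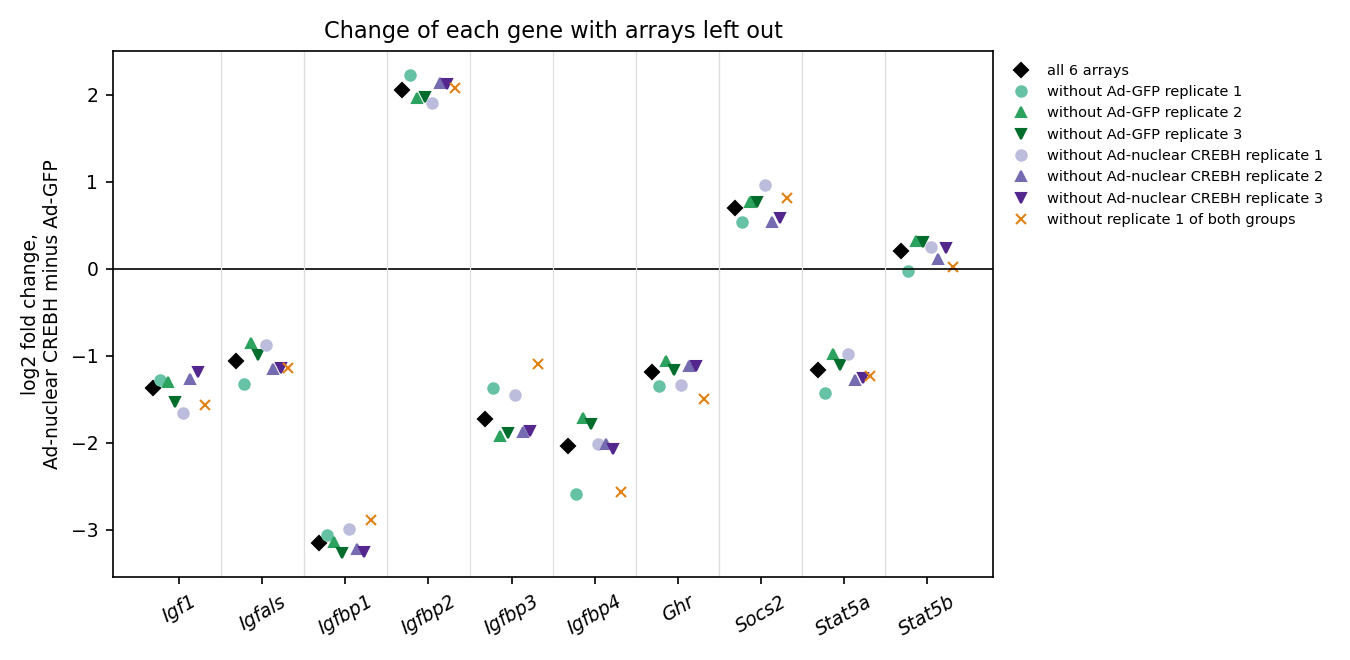
Log2 fold change of the 10 genes, Ad-nuclear CREBH minus Ad-GFP, with all 6 arrays (black diamonds), with 1 array left out (green and purple symbols) and without replicate 1 of both groups (orange crosses). *Igfbp1* stays between -3.27 and -2.89 and *Igfbp2* between 1.90 and 2.23, whereas *Igfbp3* reaches -1.09 without both arrays numbered 1.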

How the data were processed

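RNA of 6 dishes of primary hepatocytes, 3 per group, was hybridized by the authors to Affymetrix Mouse Gene 1.1 ST arrays. The authors deposited log2 values made with RMA, for which the sources used here name neither version nor probe set definition. The log base was read from the range of the values, and these were used as deposited. Of 35556 features, 21218 carried 1 gene symbol in the platform's annotation, 1881 several and 12457 none. Only the first kind was used, with the feature of the highest mean for the 1386 genes that had several, which left 18820 genes. RMA carries no flag for background, so the fold change of a dim gene may be understated, and precision is limited by having 6 arrays.

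Linear models were fitted with limma 3.58.1 in R 4.3.3 (lmFit, then eBayes with trend) for the difference nuclear CREBH minus Ad-GFP, without covariates, with 4 residual degrees of freedom and a prior of 3.97, and Benjamini-Hochberg adjustment over all genes. The methods of the study name an intensity-based moderated statistic, which was written out as an alternative. Other alternatives changed the prior on the variance, weighted the arrays, blocked on the replicate number, and changed the normalization, features per gene, filters on dim genes, the criteria of the methods and arrays left out. The fit was tested on simulated data, with 50 genes changed at each size and so far fewer than were called here. It recovered 14 of 50 changes of 1.5-fold, 29 of 50 of 2-fold, 45 of 50 of 4-fold and 49 of 50 of 8-fold, and called 8 unchanged genes. Small changes were thus often missed there, and a gene that did not pass may still have changed. Promoters were taken from RefSeq, GRCm38.p6, and figures were drawn with matplotlib 3.10.9.

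The genes and lists were chosen with earlier results of these data known. Named are all 10 genes, *Creb3l3* and *Fgf21*. From each pathway list the genes with the largest changes are named, at most 4 that rose and 4 that fell, and the 3 brightest genes that did not pass. Marker lists are named by their 2 brightest genes, with the other hepatocyte, macrophage and cholangiocyte markers that passed. *Igf2*, *Igf1r*, *Pappa* and *Pappa2* and both differences between 2 genes were chosen after their values were seen.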

Additional observations from a re-analysis of the deposited data

How the results depend on the processing

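All 10 genes kept the sign of their log2 fold change under every alternative in which they were tested, except *Stat5b*, at -0.026 without Ad-GFP replicate 1. *Igfals*, *Igfbp3*, *Ghr*, *Stat5a* and *Stat5b* had no group mean above 300 and were not tested under that filter. The count of 7 fallen held except with 1 array left out (6 to 7), among genes with a linear group mean above 300 (3 fallen) and by the criteria of the methods (2 fallen). The filter at 300 removed *Igfals*, *Igfbp3*, *Ghr*, *Stat5a* and *Stat5b* before the test. The genes of the list that it kept, *Igf1*, *Igfbp1*, *Igfbp2*, *Igfbp4* and *Socs2*, passed. That filter takes the higher of both group means, and *Igfbp1*, *Igfbp2* and *Igfbp4* cleared it only in the group where they were higher. Their passing under it is therefore no added support. The count of 1 risen became 2, through *Socs2*, with array weights (0.76), the replicate block (0.69), median centring (0.83), genes above the 25th percentile (0.69) and genes with a group mean above 300 (0.69). By the criteria of the methods *Igfals* (-1.06), *Igfbp3* (-1.73), *Igfbp4* (-2.03), *Ghr* (-1.19) and *Stat5a* (-1.17) no longer passed. With arrays left out, 1 to 2 of the 10 rose, *Igfals* ranged from -1.33 to -0.85, *Socs2* from 0.53 to 0.96, being 0.81 without both arrays numbered 1, and *Stat5b* from -0.026 to 0.32.

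Over all genes, 3615 rose and 3427 fell, and 2877 to 4377 and 2637 to 4765 did with arrays left out, the highest without both arrays numbered 1. Among genes with a group mean above 300, 1861 rose and 1468 fell, and by the criteria of the methods 924 and 584. In the pathway lists, with each gene counted once, 18 rose and 27 fell in the main fit, beside 19.2% risen and 18.2% fallen over all genes. Among genes above 300, 7 of the listed genes rose and 11 fell, beside 1861 and 1468 of all 4741 tested. By the criteria of the methods 4 rose and 7 fell, beside 4.91% and 3.1% of all genes. With arrays left out 15 to 26 rose and 20 to 34 fell. Whether the replicate numbers pair the dishes was not settled, and they were not used as pairs. Deviations from the group means of same-numbered dishes correlated, across genes, at 0.18, 0.073 and 0.14, and replicates 1 and 3 correlated best with their own number while replicate 2 did not. With the replicate block 3715 genes rose and 3705 fell, and of the genes named *Socs2*, *Gab1* (0.0293), *Insr* (0.0159), *Elovl3* (0.0193), *Hnf4a* (0.0325) and *Foxo3* (0.0353) passed that otherwise did not, the values being adjusted p. The causes of these differences were not tested. Where a gene is dim, as *Igfbp3* under nuclear CREBH, the size of its fall may be understated.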

Other observations

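Liver genes that differ between male and female mice through the pattern of growth hormone release were counted as 2 further lists, in these dishes of male hepatocytes. Both lists were chosen with earlier results of these data known. Of 12 male-biased genes 7 fell, 1 rose and 4 did not pass, with a median log2 fold change of -0.69, against 18.2% fallen and a median of 0.039 over all genes. *Cyp7b1*, the oxysterol 7α-hydroxylase, was at -2.48 (adjusted p = 8.8e-04), *Selenbp2* at -2.35 (adjusted p = 5.0e-04), *Ugt2b38* at -1.95 (adjusted p = 3.9e-04) and *Bcl6*, a repressor that competes with STAT5 for sites in liver, at -1.79 (adjusted p = 5.6e-05), whereas *Cspg5* rose by 1.01 (adjusted p = 0.00102). *Selenbp2* and *Ugt2b38* have close relatives whose transcripts their probes may share. *Elovl3*, *Cyp4a12a* and *Slco1a1* did not pass, with adjusted p-values of 0.335, 0.668 and 0.0931, and the first of them passed without Ad-GFP replicate 1 (0.0353) and the second without Ad-nuclear CREBH replicate 1 (0.00792). *Slco1a1* passed under each of the other normalizations, median centring (0.0308), quantile (0.0264) and cyclic loess (0.0247), and *Elovl3* with array weights (0.0389) and the replicate block (0.0193). Of 12 measured female-biased genes 4 fell, 2 rose and 6 did not pass, with a median of -0.26, and 9 of the 12 had an Ad-GFP mean below the median of all genes. Over all genes 19.2% rose and 18.2% fell. *Prom1* fell, at -2.03 (adjusted p = 4.3e-04), or -0.96 as the mean of its features, and so did *Fmo2* at -1.48 (adjusted p = 0.0124, and 0.0503 without Ad-nuclear CREBH replicate 3), *Cyp2b9* at -0.91 (adjusted p = 0.00465) and *Tox* at -0.69 (adjusted p = 0.0124, and 0.0519 and 0.0516 without Ad-nuclear CREBH replicates 2 and 3, and 0.0602 with median centring). The acyl-CoA thioesterase genes *Acot4* and *Acot3* rose by 1.74 (adjusted p = 2.3e-04) and 0.86 (adjusted p = 0.0028). *Cyp17a1*, *Cux2* and *Cyp3a44* did not pass, at -0.60, 0.10 and -0.42, and *Cyp17a1* passed without Ad-GFP replicate 3 (0.0225), with array weights (0.022) and among genes above the 25th percentile (0.0458).

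Of 15 measured transcription factors known to act on *Igf1* or *Igfbp1*, 4 rose, 6 fell and 5 did not pass, beside 19.2% risen and 18.2% fallen over all genes. *Foxo1*, an activator of *Igfbp1* through the insulin response element, rose by 1.03 (adjusted p = 6.3e-04) and was at 8.01, 7.97 and 7.94 in the Ad-GFP dishes and at 8.76, 9.12 and 9.12 in the Ad-nuclear CREBH dishes. *Ppara* rose by 3.11 (adjusted p = 2.4e-05), *Cebpb* by 1.44 (adjusted p = 0.00166) and *Atf4* by 0.40 (adjusted p = 0.0343), whose call was lost without any 1 array other than Ad-GFP replicate 1 (0.0796 to 0.127), and with quantile normalization (0.253) and cyclic loess (0.0973). The hypoxia factor genes *Epas1* and *Hif1a* fell, at -1.50 (adjusted p = 0.00139) and -1.18 (adjusted p = 4.6e-04), as did *Usf2* at -1.15 (adjusted p = 5.2e-04) and *Nr3c1*, the glucocorticoid receptor gene, at -1.10 (adjusted p = 0.0025). *Hnf4a*, *Cebpa* and *Foxo3* did not pass, with adjusted p-values of 0.129, 0.169 and 0.0582, and *Hnf4a* passed without Ad-GFP replicate 1 (0.0111) and *Foxo3* without Ad-nuclear CREBH replicate 1 (0.031). *Foxo3* also passed without the intensity trend (0.0354), with array weights (0.00813), the replicate block (0.0353), median centring (0.01), quantile normalization (0.0168) and cyclic loess (0.0128), and among genes above the 25th percentile (0.0475). *Hnf4a* also passed with array weights (0.00772), the replicate block (0.0325) and quantile normalization (0.0301), and *Cebpa* with array weights (0.0475) and median centring (0.0269). Transcript levels do not show the activity of these factors, and no relation between them and the 10 genes was tested.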
